A study of Arabidopsis thaliana with 48 samples.

Results

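The leaf transcriptome of excised *Arabidopsis thaliana* leaves was compared between 23 h and 22 h after pre-treatment, over all genes and with the 3 libraries of each time point. These are 6 of the 48 libraries of a time course with 16 time points, and the 3 libraries of 22.5 h, which lie between the compared groups, did not enter the comparison. Both groups hold the fourth rosette leaf of 21-day-old soil-grown plants, cut at the petiole. All leaves had been floated on buffer in the dark at 16°C for 24 h and were then placed in continuous light at 22°C, so the groups differ only in the hour of harvest. The labels name no genotype, and the methods give Columbia as the wild-type control without naming it for this time course. No agent was given to one group and not to the other. The labels call the material excised leaf, and neither labels nor methods state if the 3 replicates came from separate plants or plates or how many leaves were pooled, so a p-value here reflects library-to-library spread that could be technical alone. In whole leaves, fewer cells of a type and less RNA per cell cannot be told apart.

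A cut leaf senses a wound, loses its sink tissues and can form new roots at the cut petiole, a process called *de novo* root regeneration (DNRR) that depends on auxin made in the blade. Its circadian clock continues to run. In that clock, MYB-like factors of the morning (*CCA1*, *LHY* and the *REVEILLE* genes) and the *PSEUDO-RESPONSE REGULATOR* (*PRR*) genes of the day restrain each other, and clock output reaches photosynthesis, starch use, cold responses and hormone signalling.

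Reads were counted per gene, and levels are given as counts per 1000000 counts of a library (CPM). The 6 libraries held 28754930 to 38763552 counts and 21706 to 22175 genes with a count. Between 9.9% and 13.0% of the counts came from the 10 top genes of a library. Plastid genes took 0.197% in 22 h replicate 3 and 0.355% to 0.407% in the other 5 libraries. The libraries of a group were not always each other's nearest neighbours. Over 11477 genes of the whole series, 22 h replicate 1 was most like 22.5 h replicate 3, and each 23 h library was most like a library of another time point (23.5, 21.5 or 24.5 h). These nearest matches of the 23 h libraries had a correlation r of 0.582, 0.532 and 0.779. Among the 23 h libraries themselves r was only −0.024 to 0.244, and among the 22 h libraries it was 0.214 to 0.824. Of the leaf cell markers, those of epidermis, vasculature, mesophyll and guard cells were present. None of the 5 root markers (*COBL9*, *EXPA7*, *RHD6*, *PLT1* and *WOX5*) averaged 1 CPM across the 6 libraries, so none was tested.

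Of 34262 genes in the table, the 17421 that averaged 1 CPM or more across these 6 libraries were tested with edgeR's quasi-likelihood test, with the replicate number as a factor. At an adjusted p under 0.05, 700 genes were higher at 23 h (4.02% of the genes tested) and 837 were lower (4.8%). The median log2 fold change was 0.56 for the former, −0.60 for the latter and −0.0007 for all genes tested. A change of at least 2-fold was seen in 88 of the higher and 113 of the lower genes. Counts of called list members below are to be read beside the 4.02% higher and 4.8% lower over all genes tested. In 1200 of the 1537 called genes the 3 libraries of 23 h lay wholly above or below those of 22 h. Over all genes tested, the groups were apart in this way in 22.3%. In the other 337 called genes the groups overlapped and only the paired libraries moved together. Without the replicate number in the fit, 150 genes were higher and 171 lower. The counts also depend on each replicate: they were 426 and 508 without replicate 1, 291 and 432 without replicate 2, and 179 and 207 without replicate 3. With scaling to library totals in place of trimmed mean of M-values (TMM) factors, the split was 785 higher and 628 lower.

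**Figure D1:**
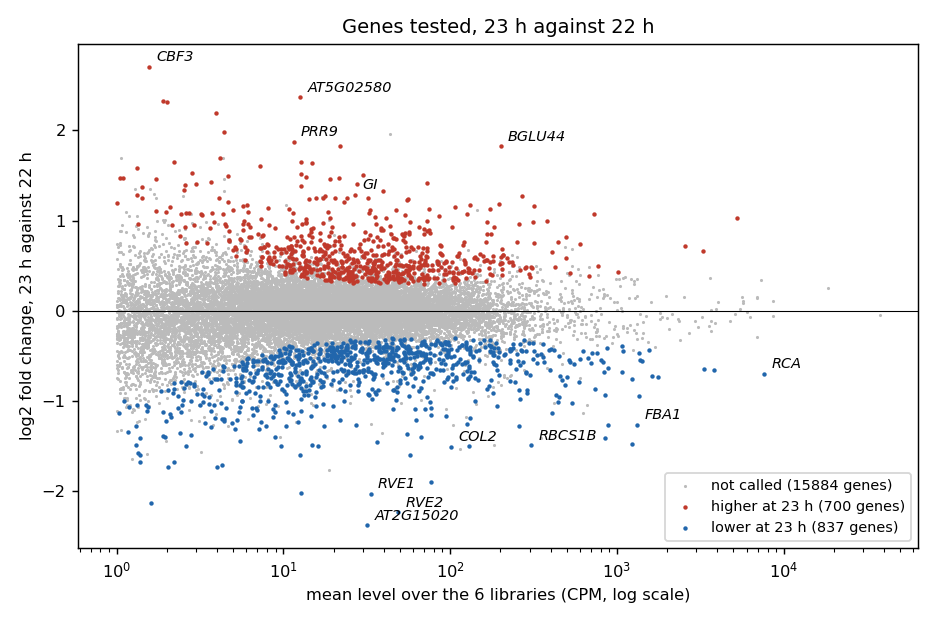
Log2 fold change at 23 h against 22 h (vertical axis) and mean level over the 6 libraries in CPM (horizontal log axis) for the 17421 genes tested. Red points are the 700 genes higher at 23 h, blue points the 837 genes lower at 23 h and grey points the rest. The called genes span the whole range of levels except the top. *CBF3* is the highest point and AT2G15020 the lowest.

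The largest falls among called genes at 10 CPM or more whose groups were apart were led by AT2G15020 and by 2 *REVEILLE* genes of the morning clock. AT2G15020, which RefSeq annotates as an uncharacterized protein, had 49.3, 61.5 and 48.4 CPM at 22 h and 14.4, 7.62 and 9.85 CPM at 23 h. *RVE2* (AT5G37260), a MYB-like factor related to *CCA1*, had 76.2, 92.1 and 72.7 CPM at 22 h and 13.6, 17.42 and 22.0 CPM at 23 h. *RVE1* (AT5G17300), which links the clock to auxin synthesis, had 46.2, 67.0 and 47.3 CPM at 22 h and 11.0, 13.4 and 15.73 CPM at 23 h. For all 3 genes the groups were apart, which the rule that chose them requires. The log2 fold changes were −2.38 ± 0.22 (SE, adjusted p = 0.0094) for AT2G15020, −2.23 ± 0.14 (adjusted p = 0.00605) for *RVE2* and −2.03 ± 0.13 (adjusted p = 0.00605) for *RVE1*. An overlapping gene lies opposite *RVE1* for 225 bases, and the counting strand is not given in the sources used here, so reads of the overlap cannot be assigned to either gene.

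Of the 12 morning clock genes, all tested, 5 were lower at 23 h (*RVE2*, *RVE1*, *LHY*, *RVE8* and *CCA1*) and none was higher, with a median log2 fold change of −0.15. *LHY*, the partner of *CCA1* at the core of the clock, had 318, 218 and 166 CPM at 22 h and 190, 113 and 86.7 CPM at 23 h. These groups overlapped, because replicate 1 was highest in both, and the fall of 0.91 ± 0.09 on the log2 scale (adjusted p = 0.0098) rests on the pairs. *CCA1* had 145, 120 and 104 CPM at 22 h and 126, 72.0 and 60.5 CPM at 23 h, also with overlap, and stood just inside the threshold (log2 fold change −0.60 ± 0.14, adjusted p = 0.0497). *RVE8*, an activator of evening genes, had 75.6, 66.3 and 56.1 CPM at 22 h and 53.3, 36.3 and 32.7 CPM at 23 h, without overlap. The log2 fold changes of the remaining morning genes were small, for example −0.19 for *RVE4*, 0.19 for *RVE7* and 0.15 for *LNK2*. Without the replicate factor 2 of the 5 were called, *RVE1* and *RVE2*, and 5, 4 and 3 morning genes were called without replicates 1, 2 and 3. None was called when all 48 libraries entered the fit, and 2 were with 45 libraries, 22.5 h left out.

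The day and evening clock genes moved in both directions. Of the 19 day and evening clock genes, 18 were tested, 4 were higher at 23 h (*PRR7*, *GI*, *PRR9* and *GRP8*) and 3 lower (*CDF2*, *TOC1* and *BOA*). *PRR9*, a repressor of *CCA1* and *LHY* with the second largest rise among called genes at 10 CPM or more whose groups were apart, had 3.80, 4.29 and 6.60 CPM at 22 h and 19.6, 16.6 and 18.19 CPM at 23 h (log2 fold change 1.87 ± 0.19, adjusted p = 0.0104). *PRR7*, a repressor of the same targets, had 49.7, 50.5 and 63.5 CPM at 22 h and 107, 102 and 140 CPM at 23 h (1.05 ± 0.07, adjusted p = 0.00605). *GI*, which acts in clock timing and in flowering by day length, had 16.1, 14.02 and 16.3 CPM at 22 h and 36.3, 39.0 and 40.8 CPM at 23 h (1.29 ± 0.09, adjusted p = 0.00613). All 3 rose without overlap between the groups, and all 3 were called without the replicate factor too. No day or evening clock gene was called higher when all 48 libraries entered the fit, and 3 were with 45 libraries, 22.5 h left out. *GRP8*, an RNA-binding protein gene with its own clock-driven feedback, had 115, 93.5 and 92.5 CPM at 22 h and 153, 137 and 149 CPM at 23 h (0.52 ± 0.07, adjusted p = 0.0178).

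The other called genes of this list fell. *TOC1*, the evening repressor, had 22.8, 22.8 and 25.2 CPM at 22 h and 17.7, 16.0 and 21.5 CPM at 23 h (log2 fold change −0.40, adjusted p = 0.0373). *BOA*, a relative of the evening complex gene *LUX*, had 2.996, 3.49 and 3.41 CPM at 22 h and 1.73, 1.95 and 1.26 CPM at 23 h (−1.05, adjusted p = 0.0378). *CDF2*, a repressor of *CONSTANS*, had 53.7, 57.4 and 49.9 CPM at 22 h and 32.7, 36.4 and 39.9 CPM at 23 h (−0.60, adjusted p = 0.0175). In each of the 3 the groups were apart. *PRR5* (log2 fold change −0.22), *PRR3* (0.05), *ELF4* (−0.41) and *LUX* (−0.25) did not pass the test. Each of the 3 falls was lost without the replicate factor, and 1 day or evening gene was lower when any one replicate was left out. *BOA* shares 1896 bases with a gene on the opposite strand.

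The stretches before the starts of 4 of these clock genes are shown because *RVE1* and *RVE2* fell and *PRR9* rose with the same G-box motif before their starts, and *TOC1* carries the motif known as a target of morning factors. Each is the 250 bases before the RefSeq gene start on build TAIR10.1, read 5′ to 3′ on the gene's strand. Capitals mark every match, on either strand, to the G-box CACGTG (the core bound by bZIP and bHLH factors), the evening element AAAATATCT and the CCA1 binding site AAAAATCT (both bound by *CCA1*-type factors), the CRT core CCGAC (bound by CBF factors) and the telo-box AAACCCTA.
*RVE1* (chr5:5692993-5693242, minus strand): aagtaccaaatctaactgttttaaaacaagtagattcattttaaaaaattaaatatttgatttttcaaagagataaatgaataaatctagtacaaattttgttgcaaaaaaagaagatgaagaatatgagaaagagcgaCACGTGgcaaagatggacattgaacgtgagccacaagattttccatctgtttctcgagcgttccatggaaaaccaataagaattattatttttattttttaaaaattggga
*RVE2* (chr5:14753089-14753338, minus strand): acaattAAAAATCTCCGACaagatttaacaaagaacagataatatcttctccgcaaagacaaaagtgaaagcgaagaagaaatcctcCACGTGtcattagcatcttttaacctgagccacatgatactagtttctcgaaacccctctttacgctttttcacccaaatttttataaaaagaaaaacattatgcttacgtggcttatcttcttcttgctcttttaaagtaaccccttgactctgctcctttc
*PRR9* (chr2:19232357-19232606, plus strand): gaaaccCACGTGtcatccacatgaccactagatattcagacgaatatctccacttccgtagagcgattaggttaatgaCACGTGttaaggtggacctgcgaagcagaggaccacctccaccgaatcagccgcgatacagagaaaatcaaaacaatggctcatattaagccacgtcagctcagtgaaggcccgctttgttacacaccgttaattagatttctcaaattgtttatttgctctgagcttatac
*TOC1* (chr5:24674713-24674962, plus strand): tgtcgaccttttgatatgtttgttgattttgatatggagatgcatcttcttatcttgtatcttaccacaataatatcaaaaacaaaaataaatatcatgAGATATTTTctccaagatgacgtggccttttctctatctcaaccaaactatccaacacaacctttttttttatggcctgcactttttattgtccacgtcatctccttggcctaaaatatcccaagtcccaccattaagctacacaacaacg
A G-box was present in the promoters of both *REVEILLE* genes, which fell, and 2 were present in that of *PRR9*, which rose. That of *RVE2* also held a CCA1 binding site next to a CRT core, and that of *TOC1* held 1 evening element, on the minus strand.

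Next to the clock genes, the B-box (*BBX*) zinc-finger genes, many of which act in light and day-length signalling, changed in both directions. Of 17 tested, 3 were higher (*BBX22*, *BBX28* and *COL5*) and 5 lower (*COL2*, *COL1*, *COL9*, *BBX32* and *BBX18*), with a median log2 fold change of −0.36. *COL2* had 138, 171 and 139 CPM at 22 h and 53.2, 59.7 and 48.2 CPM at 23 h (−1.51 ± 0.08, adjusted p = 0.0043). *COL9* had 23.0, 21.4 and 20.1 CPM at 22 h and 5.49, 8.21 and 10.4 CPM at 23 h (−1.49 ± 0.19, adjusted p = 0.0152). *BBX22*, a positive factor in light-driven greening, had 5.84, 6.61 and 8.80 CPM at 22 h and 11.7, 13.2 and 22.2 CPM at 23 h (1.08 ± 0.10, adjusted p = 0.00891). The groups of all 3 genes were apart, which the rule for the largest falls requires of *COL2* and *COL9*. *COL2* overlaps neighbouring genes on the opposite strand for 771 and 688 bases and *COL1* overlaps a long noncoding RNA gene on the opposite strand for 1807 bases, so their counts may hold reads of those genes. Without replicate 2 or replicate 3, 3 *BBX* genes were lower, and without the replicate factor 3 were lower and none was higher.

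Of 22 light signalling genes, 21 were tested, with a median of −0.07. Of these, 4 were higher and 2 lower, against 4.02% and 4.8% of all genes tested. The higher ones were *HFR1*, a bHLH factor that restrains shade growth, and the photoreceptor genes *PHYB*, *PHOT1* and *UVR8*. *HFR1* had 9.55, 11.6 and 22.8 CPM at 22 h and 30.7, 31.6 and 38.7 CPM at 23 h (log2 fold change 1.25, adjusted p = 0.0203). *PHOT1*, a blue-light receptor, had 337, 353 and 359 CPM at 22 h and 443, 491 and 581 CPM at 23 h (0.49, adjusted p = 0.0248). The lower ones were *SPA3*, a partner of the repressor COP1, with 67.6, 62.6 and 48.2 CPM at 22 h and 39.5, 28.3 and 31.8 CPM at 23 h (−0.87, adjusted p = 0.0141), and *HYH*, a bZIP factor close to *HY5*, with 9.46, 6.54 and 6.04 CPM against 4.92, 2.09 and 3.54 CPM (−1.13, adjusted p = 0.0235). The groups of these 4 genes were apart. The list had 1 higher gene without replicate 1 or replicate 2, 2 without replicate 3, and none without the replicate factor.

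**Figure D2:**
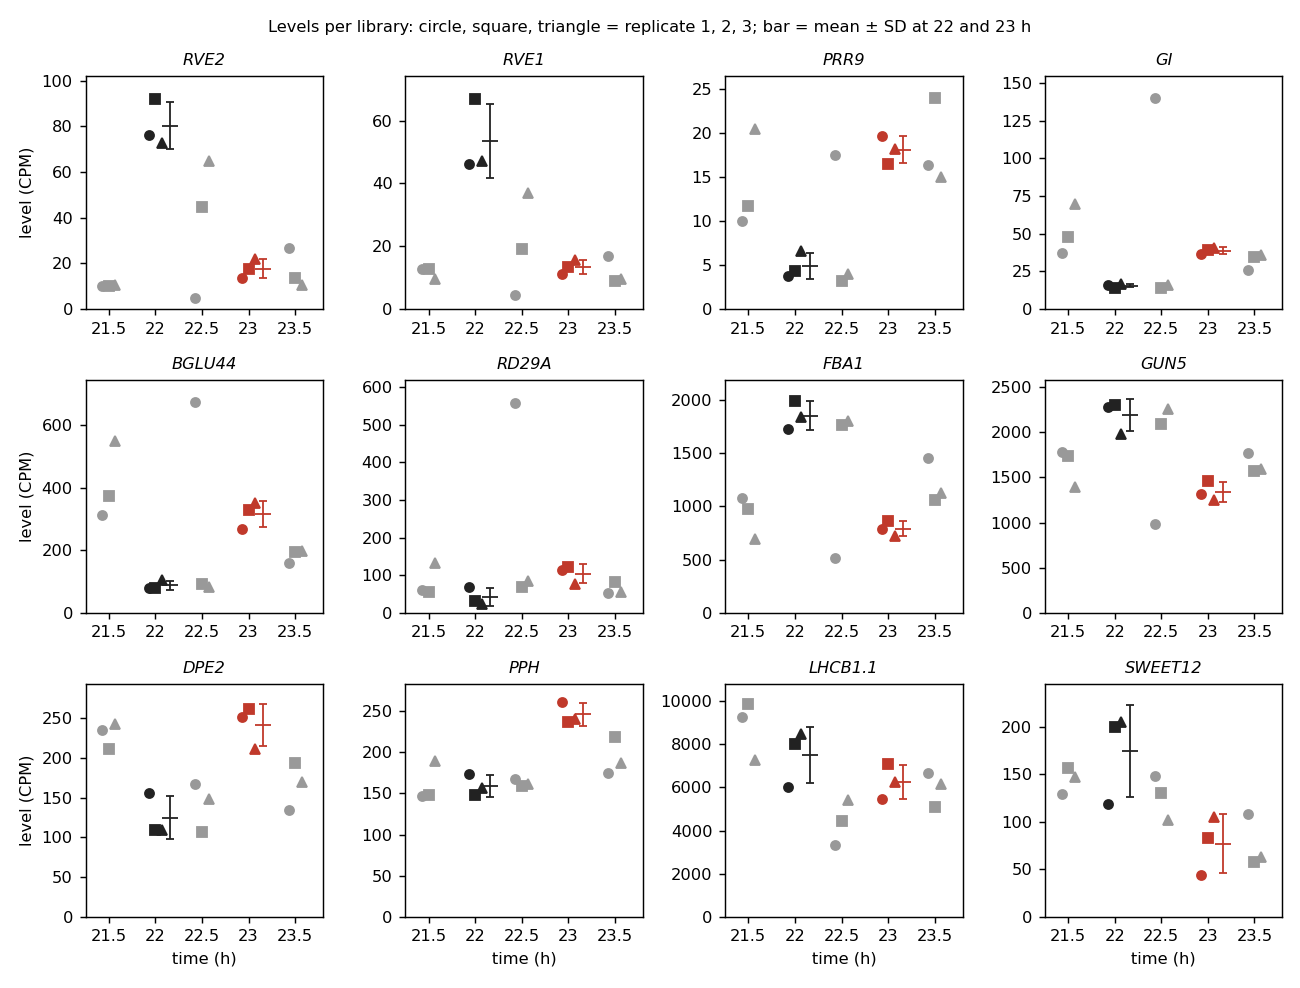
Level in CPM (vertical axis, from 0) of 12 named genes in each library at 21.5, 22, 22.5, 23 and 23.5 h (horizontal axis). Circles, squares and triangles are replicates 1, 2 and 3, black marks the 22 h and red the 23 h libraries, bars show mean ± SD, and grey marks libraries outside the comparison. *RVE2* stands between 72.7 and 92.1 CPM at 22 h and between 13.6 and 22.0 CPM at 23 h, and replicate 1 of 22.5 h lies far from its group for *GI* and *RD29A*.

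Cold-regulated genes were among the genes that rose. Of the 14 listed, 12 were tested, 6 were higher at 23 h (*CBF3*, *ERD10*, *KIN2*, *CBF2*, *RD29A* and *COR15B*), none was lower, and the median log2 fold change was 0.65. The shares over all genes tested were 4.02% higher and 4.8% lower. *CBF3*, a transcription factor that switches on cold-regulated genes, was low at 22 h with 0.297, 0.302 and 0.619 CPM and reached 1.91, 2.96 and 3.35 CPM at 23 h. Its log2 fold change was 2.70 ± 0.26 (adjusted p = 0.0098). *RD29A*, a target of cold, drought and abscisic acid signalling, had 69.9, 30.6 and 24.2 CPM at 22 h and 114, 122 and 76.9 CPM at 23 h (1.42 ± 0.23, adjusted p = 0.0229). *ERD10*, a dehydrin gene, had 139, 97.4 and 97.4 CPM at 22 h and 231, 239 and 196 CPM at 23 h (0.98 ± 0.12, adjusted p = 0.0141). The groups of all 6 called genes were apart, which the rule for the largest rises requires of *RD29A*. *COR15A* (0.30) and *KIN1* (−0.08) did not pass the test, nor did the cold gene *COR27* (−0.74, adjusted p = 0.139), whose level at 23 h lay below that at 22 h. Without replicate 3 the list had 1 higher gene, and without the replicate factor 3. *CBF2* and *CBF3* are near-identical neighbours, so the split of reads between them is uncertain.

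The promoter of *RD29A* is shown because it carried more CRT cores than any other printed here. Capitals mark the same motifs as above.
*RD29A* (chr5:21240467-21240716, plus strand): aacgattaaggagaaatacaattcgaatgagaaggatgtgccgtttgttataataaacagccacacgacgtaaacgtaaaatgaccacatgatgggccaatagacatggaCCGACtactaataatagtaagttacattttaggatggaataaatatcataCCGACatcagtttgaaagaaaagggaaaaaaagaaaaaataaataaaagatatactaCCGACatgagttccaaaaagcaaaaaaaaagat
It held 3 CRT cores, at 140, 90 and 33 bases before the start. CRT cores were present in 13.3% of the promoters of higher genes and in 13.3% of those of all genes tested.

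Genes of carbon fixation fell together. All 11 genes of the Calvin cycle list, which fixes carbon dioxide, were lower at 23 h, with a median log2 fold change of −0.72 and no overlap between the groups in any of them. *RBCS1B*, a small subunit gene of Rubisco, had 438, 522 and 390 CPM at 22 h and 132, 185 and 178 CPM at 23 h (−1.49 ± 0.11, adjusted p = 0.00701). *FBA1*, a plastid aldolase, had 1725, 1991 and 1843 CPM at 22 h and 786, 860 and 723 CPM at 23 h (−1.26 ± 0.10, adjusted p = 0.00743). *RCA*, Rubisco activase, was the most abundant of the list with 9531, 9812 and 8819 CPM at 22 h and 6376, 5971 and 5441 CPM at 23 h (−0.70 ± 0.10, adjusted p = 0.0182). *SBPASE*, which regenerates the carbon dioxide acceptor, had 642, 570 and 470 CPM at 22 h and 380, 353 and 304 CPM at 23 h (−0.72 ± 0.08, adjusted p = 0.0113). The other members fell by 0.55 (*GAPA*) to 0.87 (*GAPB*) on the log2 scale. *RBCS1B*, *RBCS2B* and *RBCS3B* are near-identical neighbours whose reads the counting could have split. Of the 11, 8 to 10 were called when any one replicate was left out and 5 without the replicate factor. None was called when all 48 libraries entered the fit.

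Of 17 light harvesting and photosystem genes tested, 1 was lower and none higher, a share near that of all genes tested (4.8% lower and 4.02% higher). The called gene was *LHCB4.3*, a minor antenna protein gene, with 6.67, 5.37 and 5.88 CPM at 22 h and 3.29, 3.62 and 3.97 CPM at 23 h (log2 fold change −0.75, adjusted p = 0.0369). It was not called when any one replicate was left out. The median of the list was −0.04. *LHCB1.1*, also known as *CAB2*, had 6028, 8007 and 8469 CPM at 22 h and 5479, 7063 and 6248 CPM at 23 h, which overlap (−0.29 ± 0.12, adjusted p = 0.178). *LHCB1.4* had 4856, 7200 and 7295 CPM against 7036, 9439 and 8276 CPM (0.34 ± 0.12, adjusted p = 0.136), also with overlap. *Lhca6*, an antenna protein of photosystem I outside that list, was among the 12 largest falls, from 22.6, 28.2 and 20.6 CPM to 9.44, 9.98 and 6.56 CPM (−1.50 ± 0.11, adjusted p = 0.00701). The *LHCB1* genes are near-identical copies, so their counts are uncertain, and the difference between the Calvin cycle and antenna lists was not tested.

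Most of the chlorophyll synthesis genes fell. Of 9 synthesis genes, 8 were tested and 6 were lower (*GUN5*, *PORC*, *CRD1*, *HEMA1*, *CAO* and *CHLG*), with a median of −0.48 and none higher. Over all genes tested, 4.8% were lower. *GUN5*, the subunit of magnesium chelatase that binds the porphyrin, had 2279, 2303 and 1983 CPM at 22 h and 1319, 1465 and 1248 CPM at 23 h (−0.74 ± 0.09, adjusted p = 0.0136). *PORC*, which reduces protochlorophyllide in light, had 162, 150 and 126 CPM at 22 h and 97.2, 106 and 96.1 CPM at 23 h (−0.57 ± 0.08, adjusted p = 0.0181). *PORB*, for another enzyme of the same step, had a log2 fold change of 0.01 ± 0.21 and did not pass the test. The synthesis list is sensitive to the replicates, with 1 member called without replicate 1, 3 without replicate 2, 1 without replicate 3 and 1 without the replicate factor.

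Of 16 chlorophyll breakdown and senescence genes, 14 were tested and 4 were higher (*PPH*, *NOL*, *PAO* and *NYE2*), none lower, with a median of 0.24. Over all genes tested, 4.02% were higher. *PPH*, which removes the phytol chain from pheophytin, had 174, 148 and 156 CPM at 22 h and 261, 236 and 240 CPM at 23 h (log2 fold change 0.60 ± 0.08, adjusted p = 0.0152). *PAO*, which opens the chlorophyll ring, had 170, 145 and 144 CPM at 22 h and 225, 189 and 203 CPM at 23 h (0.39 ± 0.07, adjusted p = 0.0288). *NYE2*, which takes the magnesium out of chlorophyll, had 3.11, 2.99 and 5.73 CPM against 8.81, 7.69 and 8.68 CPM (1.098, adjusted p = 0.0354). All 4 called members act in chlorophyll breakdown itself, but the listed breakdown genes *NYE1*, *NYC1* and *ACD2* were not called. Regulators and markers of senescence did not pass the test, among them *NAP* (log2 fold change 0.0005), *WRKY53* (0.08), *SAG13* (0.10) and *ORE1*. *ORE1*, whose promoter the study followed with a reporter, had 36.7, 56.9 and 69.9 CPM at 22 h and 48.6, 55.6 and 92.3 CPM at 23 h (0.22 ± 0.10, adjusted p = 0.208), with overlap. The list had 1, 1 and 2 higher members without replicates 1, 2 and 3, and 2 without the replicate factor.

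Starch genes moved in both directions. All 23 were tested, 7 were higher (*DPE1*, *DPE2*, *ISA3*, *PHS2*, *AMY3*, *SEX1* and *PHS1*) and 2 lower (*BAM3* and *BMY3*), with a median of 0.15. The shares over all genes tested were 4.02% higher and 4.8% lower. *DPE2*, which processes maltose in the cytosol, had 156, 109 and 109 CPM at 22 h and 251, 262 and 211 CPM at 23 h (log2 fold change 0.93 ± 0.12, adjusted p = 0.0152). *DPE1*, the plastid enzyme for short glucans, had 21.2, 20.2 and 22.7 CPM at 22 h and 32.8, 44.8 and 44.1 CPM at 23 h (0.88 ± 0.11, adjusted p = 0.0148). *ISA3*, a debranching enzyme, had 90.5, 55.0 and 53.9 CPM against 150, 159 and 132 CPM (1.15, adjusted p = 0.0157). *SEX1*, which phosphorylates starch granules so that they can be broken down, rose by a log2 fold change of 0.77. The 2 genes that fell both carry the name of beta-amylases. *BAM3*, the main plastid beta-amylase, had 762, 599 and 424 CPM at 22 h and 359, 299 and 262 CPM at 23 h (−0.96 ± 0.09, adjusted p = 0.0098). *BMY3* had 244, 195 and 134 CPM at 22 h and 46.4, 82.9 and 76.5 CPM at 23 h (−1.50 ± 0.28, adjusted p = 0.0295). In these named starch genes the groups were apart, which the rule for the largest falls requires of *BMY3*. *BAM3* shares 518 bases with a long noncoding RNA gene on the opposite strand. Of the 7 that rose, none was called without replicate 3, and 10 starch genes were higher without replicate 1. Without the replicate factor 5 were higher and none was lower.

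Genes induced by darkness and sugar starvation had a median of −0.75, and 4 of 12 tested were lower (*TPS9*, *AKINBETA1*, *ASN1* and *BT2*). *ASN1*, an asparagine synthetase gene that marks low sugar, had 140, 817 and 822 CPM at 22 h and 86.5, 257 and 553 CPM at 23 h. Replicate 1 of 22 h was far below the other libraries of its group, and the groups of all 4 called genes overlapped. The log2 fold change of *ASN1* was −1.01 ± 0.21 (adjusted p = 0.0388) with the replicate factor. Without that factor its adjusted p was 0.515, and none of the 12 was called. Without replicate 1 or replicate 2, 2 of the 12 were called.

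**Figure D3:**
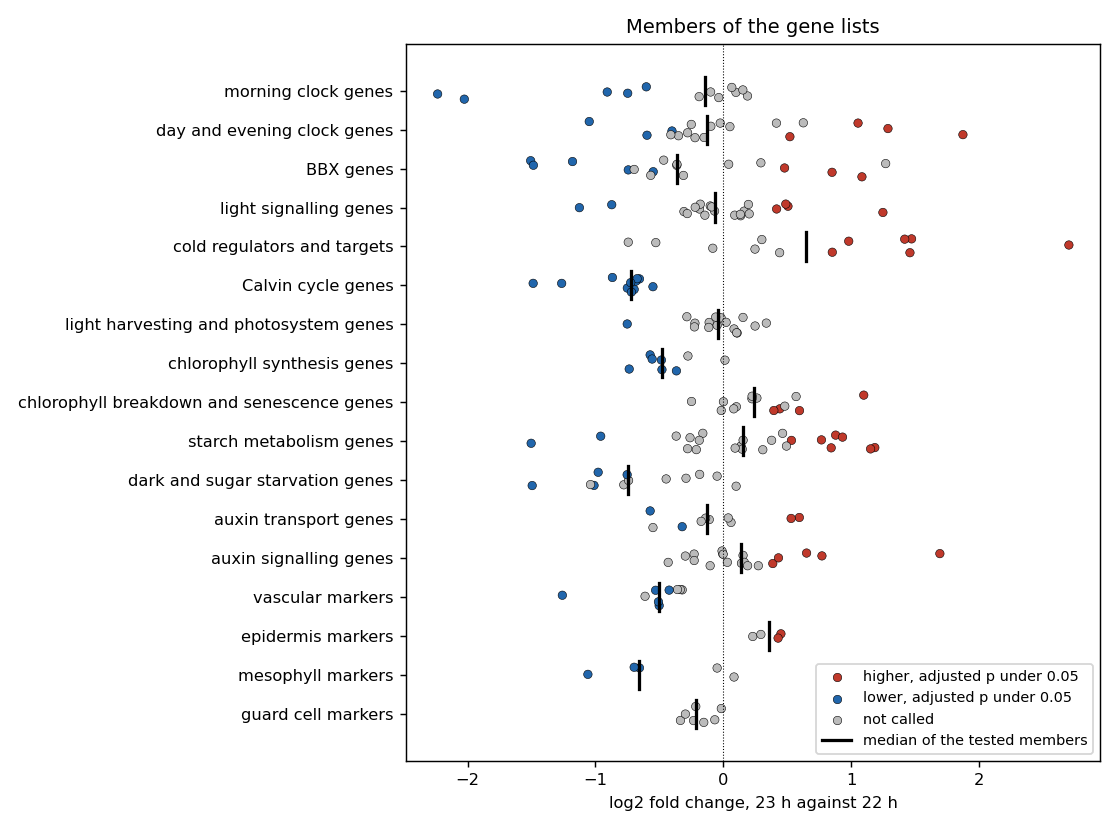
Log2 fold change at 23 h against 22 h (horizontal axis) of the tested members of 17 gene and marker lists (rows). Red and blue points were higher or lower at an adjusted p under 0.05, grey points were not called, and black lines are medians. All 11 Calvin cycle genes lie to the left of 0, and the median of the 17 light harvesting and photosystem genes is −0.04.

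The called auxin signalling genes were all higher at 23 h, while 1 auxin-induced gene outside the lists was lower. Of 19 tested auxin signalling genes, 5 were higher and all 5 encode Aux/IAA repressors, which auxin itself induces (*IAA29*, *IAA3*, *IAA2*, *IAA7* and *IAA1*), and none was lower. Over all genes tested, 4.02% were higher and 4.8% lower. *IAA29* had 1.54, 1.91 and 2.296 CPM at 22 h and 4.58, 7.27 and 7.42 CPM at 23 h (log2 fold change 1.69 ± 0.16, adjusted p = 0.00891). *IAA3* had 20.6, 12.3 and 14.6 CPM at 22 h and 33.6, 24.8 and 23.9 CPM at 23 h (0.77 ± 0.10, adjusted p = 0.0152). Both rose without overlap between the groups, and *IAA3* shares 640 bases with a gene on the opposite strand. *ARF7*, an activator of auxin targets, did not pass the test, with 66.5, 51.2 and 47.6 CPM at 22 h and 65.4, 49.7 and 52.8 CPM at 23 h (adjusted p = 0.975), nor did the receptor gene *AFB2* (0.03 ± 0.11, adjusted p = 0.884). The list had 2 higher genes when any one replicate was left out and 1 without the replicate factor. *BRU6* (AT4G37390), an auxin-induced gene of the GH3 family that conjugates auxin, is in none of the lists and was chosen after its values were seen. It had 7.77, 12.6 and 22.6 CPM at 22 h and 5.24, 3.41 and 12.1 CPM at 23 h, with overlap, and was lower (log2 fold change −1.13 ± 0.23, adjusted p = 0.0392, and 0.319 without the replicate factor).

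Among auxin transport genes, 2 of 10 were higher and 2 lower, against 4.02% higher and 4.8% lower over all genes tested. *PIN7*, an efflux carrier gene, had 115, 105 and 113 CPM at 22 h and 177, 164 and 174 CPM at 23 h (log2 fold change 0.59 ± 0.07, adjusted p = 0.0142), and *ABCB19*, a transporter that works with PIN proteins, had 73.4, 69.9 and 78.2 CPM against 106, 111 and 110 CPM (0.53 ± 0.08, adjusted p = 0.019). The groups of both were apart. *PIN3*, another efflux carrier gene, had 154, 206 and 208 CPM at 22 h and 120, 163 and 185 CPM at 23 h, with overlap, and was just inside the threshold (−0.32 ± 0.07, adjusted p = 0.0495). The influx carrier gene *LAX2* fell by 0.57 on the log2 scale, and neither fall was called when any one replicate was left out. Without the replicate factor 1 of the 10 was called. The list for auxin synthesis and inactivation does not hold *BRU6* and had 10 tested genes. Of these, 1 was called, near the share over all genes tested. The median log2 fold change of these 10 genes was 0.41, with a range of −0.28 to 1.58. An unadjusted p under 0.05 was seen in 6 of the 10, in either direction, and in 4950 of the 17421 genes tested. The called gene was *YUC9*, an enzyme gene of auxin synthesis. It had 0.712, 0.403 and 0.826 CPM at 22 h and 2.13, 2.09 and 1.75 CPM at 23 h (1.58 ± 0.30, adjusted p = 0.0317), so it rests on low counts, and it was not called when any one replicate was left out.

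Of 40 DNRR-associated genes that the study lists from earlier work, 25 were tested, 4 were higher (*NAC1*, *PIN7*, *ABCB19* and *YUC9*) and 3 lower (*SHR*, *PLT5* and *PIN3*), with a median of 0.09. Over all genes tested, 4.02% were higher and 4.8% lower. An unadjusted p under 0.05 was seen in 17 of the 25, in either direction, and in 4950 of the 17421 genes tested. *NAC1*, which acts in root formation from cut leaves, had 44.9, 33.2 and 35.0 CPM at 22 h and 76.0, 66.8 and 65.6 CPM at 23 h, without overlap (log2 fold change 0.86 ± 0.08, adjusted p = 0.00891). It overlaps other genes on the opposite strand for 148 and 809 bases. *SHR*, a root patterning factor that leaves express in the vasculature, had 8.57, 10.6 and 9.70 CPM at 22 h and 6.15, 6.26 and 5.76 CPM at 23 h (−0.70, adjusted p = 0.0256). *PLT5*, an AP2-type factor of organ growth, had 3.71, 3.32 and 2.89 CPM against 1.63, 1.95 and 1.54 CPM (−0.99, adjusted p = 0.0287). Without replicates 1, 2 and 3, 3, 2 and 2 members were higher and 1, 1 and 0 were lower, and without the replicate factor 3 were higher and 1 was lower.

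Of 29 tested abscisic acid genes, 2 were higher and 1 lower, shares near those of all genes tested (4.02% higher and 4.8% lower). *ABF1*, a bZIP factor of the pathway, had 8.45, 6.21 and 7.76 CPM at 22 h and 11.6, 11.9 and 17.5 CPM at 23 h (log2 fold change 0.82, adjusted p = 0.0251), and the kinase gene *SNRK2.2* rose by 0.43 (adjusted p = 0.029). *HAB1*, a phosphatase that restrains the pathway, had a log2 fold change of −0.34 (adjusted p = 0.0495). *EAR1*, an abscisic acid signalling gene in which some of the study's mutants lie, had 350, 422 and 493 CPM at 22 h and 285, 329 and 297 CPM at 23 h. Its groups did not overlap, yet the adjusted p was 0.0575 (−0.50 ± 0.12). *EAR1* overlaps a long noncoding RNA gene on its own strand for 233 bases. *ABF1* overlaps another such gene on the opposite strand for 620 bases. *KMD1*, an F-box gene that the study also followed, had 115, 173 and 195 CPM at 22 h and 77.4, 181 and 228 CPM at 23 h, with overlap (−0.13 ± 0.15, adjusted p = 0.614). Neither rise was called without replicate 3, *HAB1* was not called when any one replicate was left out, and none of the 3 calls was made without the replicate factor.

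Some cell type markers moved with the hour as well. All 9 vascular markers had lower levels at 23 h with an unadjusted p under 0.05, and 5 of them were called (*SWEET12*, *SUC2*, *HB-8*, *AHA3* and *SWEET11*), with a median of −0.50. Over all 17421 genes tested, 4950 had an unadjusted p under 0.05, in either direction. *SWEET12*, which exports sucrose to the phloem, had 118, 199 and 205 CPM at 22 h and 43.6, 82.6 and 105 CPM at 23 h (−1.26 ± 0.09, adjusted p = 0.00701). *SUC2*, the sucrose loader of companion cells, had 352, 401 and 345 CPM at 22 h and 242, 281 and 255 CPM at 23 h (−0.53 ± 0.07, adjusted p = 0.0172). The summed level of the 9 was 1338 to 1606 CPM at 22 h and 989 to 1085 CPM at 23 h, without overlap. Without the replicate factor none of the 9 was called, and 3, 2 and 1 were called without replicates 1, 2 and 3.

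Of 4 tested epidermis markers, *ATML1* and *PDF2*, 2 related epidermal identity factors, were higher, and the sum was 375 to 511 CPM at 22 h and 441 to 646 CPM at 23 h, with overlap. Of 5 mesophyll markers, *CA1*, *RBCS1A* and *RCA* were lower, and *RBCS1A* and *RCA* also belong to the Calvin cycle list. The antenna genes *LHCB1.3* and *LHCB2.1*, the other mesophyll markers, did not pass the test (−0.05 and 0.08). The mesophyll sum was 52240 to 62440 CPM at 22 h and 49250 to 57900 CPM at 23 h. None of 7 guard cell markers was called, and 1 had an unadjusted p under 0.05, against 4950 of the 17421 genes tested. The part of a shift between cell types in the Calvin cycle, sugar transport and DNRR results was not tested.

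Genes outside the lists led the rises at 10 CPM or more. AT5G02580, which RefSeq annotates as an argininosuccinate lyase, had 4.39, 2.38 and 4.59 CPM at 22 h and 33.0, 20.9 and 10.7 CPM at 23 h (log2 fold change 2.37 ± 0.38, adjusted p = 0.0222). *BGLU44*, a beta-glucosidase gene, was the most abundant of the 12 largest rises, with 79.5, 78.2 and 105 CPM at 22 h and 268, 328 and 351 CPM at 23 h (1.82 ± 0.10, adjusted p = 0.00469). *NAS3*, for nicotianamine synthase in metal transport, had 3.35, 5.53 and 11.9 CPM against 20.1, 15.5 and 20.3 CPM (1.52 ± 0.33, adjusted p = 0.0452). The groups of these genes were apart, which the rule that chose them requires. AT2G08665, a long noncoding RNA gene with a log2 fold change of 1.82, shares 1045 bases with the antenna gene AT2G34420 on the opposite strand, so its counts cannot be told apart from reads of that gene.

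Genes of other kinds completed the largest falls. AT5G03350, annotated as a legume lectin family protein, had 132, 137 and 91.6 CPM at 22 h and 23.0, 39.4 and 37.8 CPM at 23 h (log2 fold change −1.89 ± 0.21, adjusted p = 0.0116). *FADA*, a plastid fatty acid desaturase gene, had 19.0, 23.0 and 14.8 CPM against 8.16, 6.43 and 4.65 CPM (−1.60 ± 0.14, adjusted p = 0.00891). AT3G28270, of the DUF677 family, had 24.9, 22.5 and 13.5 CPM at 22 h and 5.71, 6.02 and 3.54 CPM at 23 h (−2.02 ± 0.10, adjusted p = 0.0043). The flavonoid gene *CHS*, chalcone synthase, fell from 127, 98.3 and 65.9 CPM to 31.3, 51.4 and 29.4 CPM (−1.40 ± 0.20, adjusted p = 0.0173), and *PAL2*, at the entry of the same pathway, fell by 0.63 on the log2 scale. They were the 2 called of 13 flavonoid genes tested, with a median of −0.34, and 4.8% of all genes tested were lower.

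The 250 bases before the start were searched for the 5 motifs in 17317 of the genes tested. None of the motifs contains another. The evening element was present in 5.86% of the promoters of higher genes (41 of 700), in 2.27% of those of lower genes (19 of 837) and in 2.51% of all (434). The CCA1 binding site was present in 10.9%, 6.45% and 6.92%, the G-box in 10.4%, 8.6% and 7.41%, and the telo-box in 2.0%, 2.15% and 3.61%, in the same order. These shares are a description and were not tested. Of the 12 largest rises, AT5G43440 (an oxygenase family gene), AT4G30660 (a low temperature and salt responsive family gene) and AT1G70820 (a putative phosphoglucomutase gene) held an evening element.

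The promoters of AT4G30660, of *GRP8* and of *ISA3* are shown because each held an evening element and each gene rose, with *BOA* beside them because it held the same element and fell.
AT4G30660 (chr4:14955123-14955372, plus strand): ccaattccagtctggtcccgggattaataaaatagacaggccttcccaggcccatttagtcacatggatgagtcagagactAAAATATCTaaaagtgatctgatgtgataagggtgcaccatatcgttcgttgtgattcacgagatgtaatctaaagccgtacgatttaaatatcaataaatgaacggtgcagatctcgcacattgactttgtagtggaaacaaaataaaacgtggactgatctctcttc
*GRP8* (chr4:18275217-18275466, minus strand): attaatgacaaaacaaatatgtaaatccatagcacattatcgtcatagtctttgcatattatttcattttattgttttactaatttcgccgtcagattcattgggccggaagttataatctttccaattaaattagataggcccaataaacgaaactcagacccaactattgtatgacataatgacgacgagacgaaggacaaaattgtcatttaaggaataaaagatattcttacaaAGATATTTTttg
*ISA3* (chr4:5783659-5783908, plus strand): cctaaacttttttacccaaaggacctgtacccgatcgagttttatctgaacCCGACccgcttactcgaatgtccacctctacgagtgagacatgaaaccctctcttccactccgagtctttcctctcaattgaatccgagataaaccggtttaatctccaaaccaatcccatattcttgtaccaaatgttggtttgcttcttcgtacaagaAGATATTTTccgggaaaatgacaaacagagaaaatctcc
*BOA* (chr5:24003638-24003887, plus strand): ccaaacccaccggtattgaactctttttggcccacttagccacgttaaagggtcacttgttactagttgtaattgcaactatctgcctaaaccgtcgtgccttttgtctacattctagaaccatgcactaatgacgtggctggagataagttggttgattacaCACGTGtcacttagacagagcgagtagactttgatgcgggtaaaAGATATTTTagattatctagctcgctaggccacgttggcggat
AT4G30660 rose from 6.94, 7.35 and 6.81 CPM to 18.1, 24.3 and 18.4 CPM, a log2 fold change of 1.48 ± 0.11 (adjusted p = 0.00701). It overlaps genes on the opposite strand for 299 and 263 bases. The far end of the element lay 169 bases before its start, 12 before that of *GRP8*, 39 before that of *ISA3* and 43 before that of *BOA*, which also held a G-box. A match of letters does not show that a factor binds there.

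**Figure D4:**
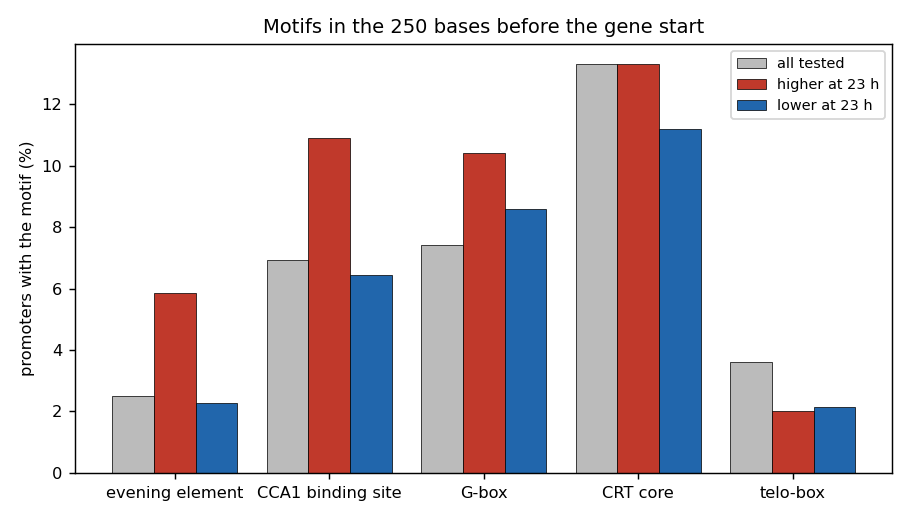
Share of promoters (vertical axis, in percent, from 0) with each of 5 motifs (horizontal axis) among all genes tested (grey), genes higher at 23 h (red) and genes lower at 23 h (blue). The evening element stands at 5.86% in the higher genes and 2.51% in all.

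The libraries around the comparison were placed between its ends. For the 423 higher and 526 lower genes at 10 CPM or more whose groups did not overlap, each library was placed on the side of the 22 h or the 23 h mean, on a log scale. At 21.5 h, 70.9% to 76.0% of the lower genes were nearer the 23 h mean, and 24.8% to 47.8% of the higher genes were. *RVE1* was one of these lower genes, with 12.8, 12.6 and 9.59 CPM at 21.5 h. The 423 and 526 genes were chosen by their 22 h and 23 h values, so no conclusion on the course over time is drawn from the shares. The left-out 22.5 h libraries disagreed with each other. The library labelled 22.5 h replicate 1 was most like 21 h replicate 2 (r = 0.824 over 11477 genes) and correlated negatively with the rest of its group (r = −0.614 and −0.339), so its values may not stand for 22.5 h. In that library, 58.2% of the higher and 81.9% of the lower genes were nearer the 23 h mean, against 18.4% to 30.0% and 13.5% to 19.6% in the other libraries. It also went beyond both ends, for example in *RD29A* (557 CPM), *GI* (140 CPM) and *LHY* (19.8 CPM). At 23.5 h the shares were 36.9% to 74.2% for the higher and 43.7% to 72.6% for the lower genes.

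**Figure D5:**
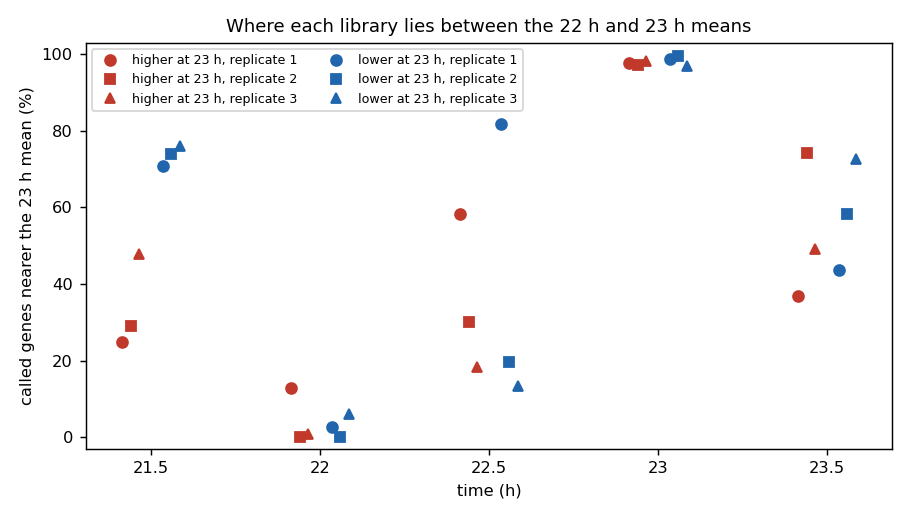
Percent of called genes that lay nearer the 23 h than the 22 h mean (vertical axis) in each library at 5 time points (horizontal axis), for 423 genes higher (red) and 526 lower (blue) at 23 h, with symbols for replicates 1 to 3. The 22 h and 23 h libraries lie at the ends because they define the means, and 22.5 h replicate 1 lies apart from its group.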

How the data were processed

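RNA-seq libraries of excised leaves from 48 samples were deposited by the authors as raw counts per gene. Per the study's methods, reads were checked with FastQC, aligned to TAIR10 with STAR and counted with HTSeq, while neither the strand setting nor the annotation version is stated there. Labels grouped the 3 libraries each of 22 h and 23 h. Their totals were 28754930 to 38763552 counts, and no replicates were copies of each other. Levels are counts divided by the library's total and scaled to 1000000 (CPM). Genes that averaged 1 CPM or more across the 6 libraries (17421 of 34262) were tested with edgeR 4.0.16 (R 4.3.3) by the quasi-likelihood F test with TMM factors and the replicate number as a factor. This leaves 2 residual degrees of freedom. All adjusted p-values are Benjamini-Hochberg values over these genes, ± is the standard error of a log2 fold change, and a gene is called at an adjusted p under 0.05. The study's methods also give an edgeR generalized linear model with TMM and the replicate number. They name neither this F test nor an adjustment for the genes called, and they searched this time course for rhythms with MetaCycle.

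Same-numbered libraries deviated together (r = 0.567, 0.287 and 0.588 over 11395 genes), so the numbers were taken to pair the samples. The other pairs had r from −0.606 to 0.287, and 22 h replicate 2 was as close to 23 h replicate 3 (0.287) as to 23 h replicate 2. The alternatives were no replicate factor, other scalings and filters, DESeq2 1.42.0, limma 3.58.1 (voom), larger sets of libraries, and each replicate or library left out. Named genes are the 12 largest rises and falls among called genes at 10 CPM or more with groups apart, up to 3 genes of each list with the smallest p, genes the study names, and others beside small counts, picked with their values in view. The members, the 32 lists and the motifs were chosen with earlier results of these data known. Names, overlaps and promoters came from RefSeq TAIR10.1, which held 17318 of the tested genes. Not every named gene with an overlap is marked in the text, for example *XTH15* (382 bases) and *COR15B* (468 bases).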

Additional observations from a re-analysis of the deposited data

How the results depend on the processing

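Among the choices that keep all 6 libraries and add no others, the replicate block had the largest part in the counts of called genes. With no replicate block 150 genes were higher and 171 lower, and all 321 were also called with it. With all 48 libraries in the fit the counts were 229 and 118, of which 171 and 91 were shared, and with 45 libraries, 22.5 h left out, 396 and 245, of which 278 and 173 were shared. Leaving out 1 replicate number gave 179 to 426 higher and 207 to 508 lower genes, the fewest without replicate 3. Leaving out 1 library, with no replicate block, gave 147 and 170 without 22 h replicate 1, 18 and 11 without 22 h replicate 3, 22 and 10 without 23 h replicate 1, and 7 and 1 without 23 h replicate 3. It gave 0 and 0 by edgeR without 22 h replicate 2 (1850 genes at an unadjusted p under 0.05) and without 23 h replicate 2 (2993 genes). The causes were not tested. Scaling to library totals shifted the median of all genes to 0.0326 and gave 785 higher and 628 lower. DESeq2 size factors (690 and 837), DESeq2 (792 and 947), limma-voom (816 and 920), no filter (744 and 875) and a mean of at least 5 CPM (694 and 876) stayed within 1.5 times. Of 87 named genes called, 86 were called by DESeq2, 86 by voom, 82 with library totals, 38 with no replicate block and 8 with all 48 libraries, and none changed direction under any alternative run.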

Other observations

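The remaining lists held 0 to 3 called genes each, and 4.02% of all genes tested were higher and 4.8% lower. Of 18 jasmonate genes tested, *AOC2*, an enzyme of jasmonate synthesis, was higher, with 79.0, 89.96 and 93.2 CPM at 22 h and 111, 174 and 166 CPM at 23 h (log2 fold change 0.73 ± 0.10, adjusted p = 0.017). Of 19 touch and rapid wound response genes, *WRKY18* was lower (−0.43, adjusted p = 0.0435). Of 15 cytokinin, gibberellin and KMD genes, the response regulator gene *ARR9* was lower (−0.66, adjusted p = 0.0405). Of 7 heat shock genes, *HSP70* and *MBF1C* were higher with overlapping groups, and *HSP70* had 88.0, 30.9 and 24.3 CPM at 22 h and 118, 70.9 and 58.4 CPM at 23 h.

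Among growth and transport genes, the wall-loosening gene *XTH15* was higher (log2 fold change 0.96) and *EXPA4* lower (−0.73) of 16 tested, and the aquaporin genes *PIP2;5* (−0.84) and *PIP2;8* (−0.76) were lower of 12. In nitrogen assimilation, 11 genes were tested. *GLN1;1*, a cytosolic glutamine synthetase gene, was higher, with 191, 140 and 176 CPM at 22 h and 271, 193 and 251 CPM at 23 h (0.46, adjusted p = 0.0221), and *GLN2*, the plastid form, was lower (−0.39, adjusted p = 0.0438), as was *GLU1* (−0.58). The sulfur gene *DES1* was higher (0.55) of 9 and the glucosinolate gene *CYP79B3* lower (−0.68) of 14. None of 9 cell cycle genes was called by edgeR, and 1 had an unadjusted p under 0.05, against 4950 of the 17421 genes tested. None of the calls of these lists was made without the replicate factor.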
